A study of Mus musculus with 19 samples.

Results

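Control mouse vomeronasal organs (VNOs) at postnatal day 21 were described from 6 mRNA-seq libraries. These were the libraries titled as wild type in the AP-2εCre line (3 libraries) and in the OMPCre line (3 libraries), out of 19 libraries in the series. The study's methods give the control genotype as Smad4flox/flox, and no Cre driver is named for these libraries. The titles say wild type, and the study's Results also name wild-type controls for a transcriptome comparison. Floxed Smad4 alleles in these libraries are therefore taken from the methods only. Every animal was labelled female and kept under a normal light and dark cycle. No treatment or strain was given. Each library came from the whole dissected organ, although the label for cell type names immature basal neurons. The other 12 assigned libraries came from Cre heterozygotes and Smad4 conditional knockouts of the same lines, and were used here to ask whether a spread or a likeness seen in the controls was also present elsewhere, and in 1 alternative fit of the comparison between lines.

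The VNO is the sense organ of pheromone detection. Its sensory epithelium holds apical neurons, which express V1r receptors and the G protein subunit Gαi2, and basal neurons, which express V2r receptors and Gαo. Both kinds transduce through the channel TRPC2. The lumen is lined on its other face by a ciliated non-sensory epithelium and is filled by glands, which secrete lipocalins such as odorant-binding proteins, and the organ lies in a capsule of bone and cartilage beside large vessels. In whole-organ RNA, fewer cells of a type and less RNA per cell cannot be told apart.

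The libraries held 43385516 to 75583450 estimated counts over genes, and 20269 to 21523 genes had at least 1 count. In counts per 1000000 after TMM scaling (CPM), 3 counts were 0.0410 to 0.0757, depending on the library. Levels of different genes are compared as transcripts per 1000000 (TPM), which divides by transcript length. Levels of 1 gene between libraries are mainly compared as CPM, and TPM per library, which also moves with the most abundant genes, is given for some. A pair of libraries stood apart. AP-2εCre-line control 3, labelled female, had 42.0 CPM of Ddx3y and 35.0 CPM of Eif2s3y, which are Y-linked, while the other 5 libraries had no count of either gene and none of the 12 other assigned libraries was above 0.416 CPM. The identity of that library is therefore in doubt, and it is called a control by its label only. OMPCre-line control 3 correlated with the others at Pearson's r of 0.895 to 0.916 across 12838 genes, against 0.950 to 0.977 among the other 5, and genes are not independent replicates. It had Krt1, a keratin of the differentiated epidermis, at 1419 CPM against 0.606 to 4.10 CPM elsewhere.

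The most abundant transcripts belonged to a row of lipocalin genes on chromosome 2, and the lipocalins that differed most between libraries to a cluster on the X chromosome. The 250 bases upstream of the RefSeq start of 5 of these genes are shown. Genes of each cluster are neighbours, and the printed genes of the clusters differed in how steady they were between libraries. The difference does not hold for the whole chromosome 2 row, since Lcn11, which lies near Lcn3, ran from 211 to 2412 CPM. Capitals mark matches to TATAAA, the core of the TATA box, or to AGAACA, the half-site hexamer of glucocorticoid and androgen receptors. Both strands were searched, and the motifs did not overlap. Coordinates are on GRCm38.p6, chr2:25699824-25700073 (+) for Obp2a, chr2:25765283-25765532 (+) for Lcn3, chrX:78091375-78091624 (-) for Obp1a, chrX:78186558-78186807 (+) for Obp1b and chrX:77864508-77864757 (+) for Gm14744.
Obp2a: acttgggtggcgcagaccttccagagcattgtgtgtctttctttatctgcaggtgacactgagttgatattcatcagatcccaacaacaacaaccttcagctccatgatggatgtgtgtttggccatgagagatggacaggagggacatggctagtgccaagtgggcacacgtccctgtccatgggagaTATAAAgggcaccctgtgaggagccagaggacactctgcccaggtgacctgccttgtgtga
Lcn3: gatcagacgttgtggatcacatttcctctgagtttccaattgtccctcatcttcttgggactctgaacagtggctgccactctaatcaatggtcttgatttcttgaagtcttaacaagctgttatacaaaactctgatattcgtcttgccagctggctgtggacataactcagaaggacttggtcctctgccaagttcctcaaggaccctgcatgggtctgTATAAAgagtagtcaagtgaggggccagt
Obp1a: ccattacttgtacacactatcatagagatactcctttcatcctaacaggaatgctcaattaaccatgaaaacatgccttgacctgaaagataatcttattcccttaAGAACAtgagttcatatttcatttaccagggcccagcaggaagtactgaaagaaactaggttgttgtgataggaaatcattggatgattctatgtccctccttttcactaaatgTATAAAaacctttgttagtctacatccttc
Obp1b: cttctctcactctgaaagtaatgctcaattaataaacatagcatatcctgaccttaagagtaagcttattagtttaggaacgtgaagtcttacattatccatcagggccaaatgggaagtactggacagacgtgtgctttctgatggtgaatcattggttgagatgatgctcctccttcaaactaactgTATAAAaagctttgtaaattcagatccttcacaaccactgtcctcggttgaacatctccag
Gm14744: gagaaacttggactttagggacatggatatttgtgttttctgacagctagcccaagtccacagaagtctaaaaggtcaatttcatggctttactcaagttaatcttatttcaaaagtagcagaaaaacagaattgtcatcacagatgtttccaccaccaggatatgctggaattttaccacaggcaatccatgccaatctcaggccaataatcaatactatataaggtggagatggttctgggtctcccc
Among the upstream sequences of 8 genes read (these 5 with Obp2b, 5430402E10Rik and Gm14743), 6 held TATAAA, which was present in 12.4% of 32851 mouse promoters of the same length. Only 3 of the 8 held it on the sense strand within 40 to 16 bases upstream, as did 1.99% of the promoters, and in Obp2a and Obp1b it began 61 bases upstream. Exact matches alone were counted, so a variant such as tatataa, present near the end of the Gm14744 sequence, was not. AGAACA was present in 1 of the 8 and in 16.1% of all promoters. The upstream sequence of 5430402E10Rik was 99.2% identical to that of Gm14744, and that of Gm14743 93.1% identical to that of Obp1b. Obp1a and Obp1b were 59.0% identical there, and Obp2a and Obp2b 75.6%, in global alignments. Any sequence of the chromosome 2 row was 46.0% to 52.2% identical to any of the X-linked row.

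Obp2a, an odorant-binding lipocalin, was the most abundant gene, with a mean of 115079 TPM (SD 31460, n = 6). Its TPM was 166654, 119189 and 92718 in AP-2εCre-line controls 1 to 3, and 131899, 100764 and 79248 in OMPCre-line controls 1 to 3. The lines overlapped, and OMPCre-line control 3 was lowest. Obp2b (84191 ± 14707 TPM, SD) and Lcn3 (41912 ± 6425 TPM), which lie beside Obp2a on chromosome 2, and Lcn4 (14678 ± 3734 TPM), about a megabase away, had the same highest and the same lowest library. Of the 75-base windows of Obp2a transcripts, 8.36% were also present in Obp2b, so the counts of this pair could largely be separated. Lcn3 and Lcn4 shared no window with another gene. Together the 4 genes held 25.6% ± 5.43 of the TPM and 15.3% ± 3.98 of the estimated counts, and each varied 2.29-fold to 3.14-fold in CPM between the highest and the lowest library.

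The 25 genes with the highest mean TPM held 34.5% to 52.9% of the TPM of a library. Of these, 8 were genes of the mitochondrial genome, which encodes subunits of the respiratory chain. Their family of 13 genes held 11.5% ± 2.18 of the TPM and 5.18% ± 0.705 of the counts. mt-Atp8 was listed at 43848 ± 20649 TPM, rank 3 of all genes, but its transcript had an effective length of 10 bases and its reads were 0.0578% of the counts. Transcripts with an effective length under 100 bases held 16.1% to 25.3% of the TPM of a library, and without them mt-Atp8 and mt-Nd4l had no value. Short transcripts also carried 69.6% of the TPM of Ltf (lactotransferrin, an iron-binding antimicrobial protein), 85.7% of that of Actb and all of that of the pseudogene Gm12338. Gm29216, a pseudogene with 10233 ± 1136 TPM, shared 96.9% of its 75-base windows with mt-Co1, so the level of the pseudogene is uncertain, and 39.8% of the windows of mt-Co1 occur in other genes. For mt-Atp6, mt-Co2, mt-Co3 and mt-Nd4l this share was 98.7% to 99.9% and for mt-Nd4 61.5%, so their levels are uncertain in the same way, whereas mt-Atp8 and mt-Cytb shared no window.

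Other secreted proteins of glands were prominent. Dmbt1, a mucosal scavenger receptor protein, held 6263 ± 1605 TPM and, with its long transcript, was at rank 3 by counts. A2ml1, a protease inhibitor, held 6421 ± 1017 TPM. Wfdc18 (4864 ± 1176 TPM) and Bpifa1, an airway surface protein (3382 ± 1348 TPM), were also among the abundant secreted products. Dcpp3 (4103 ± 2373 TPM) shared 37.5% of its windows with its relatives. The list of 14 other gland products summed to 33070 ± 7608 TPM. The 10 genes with the largest share of counts were Obp2a, Obp2b, Dmbt1, Lcn3, A2ml1, Col1a1, mt-Co1, Col1a2, Lcn4 and mt-Atp6. They differed from the first genes by TPM in that both chains of type I collagen entered. The 10 leading genes of a library took 17.5% of its counts in OMPCre-line control 3 and 32.3% in AP-2εCre-line control 1. The 95% Wilson intervals of these shares, which cover counting error only, reached at most 0.0137 percentage points to either side.

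**Figure D1:**
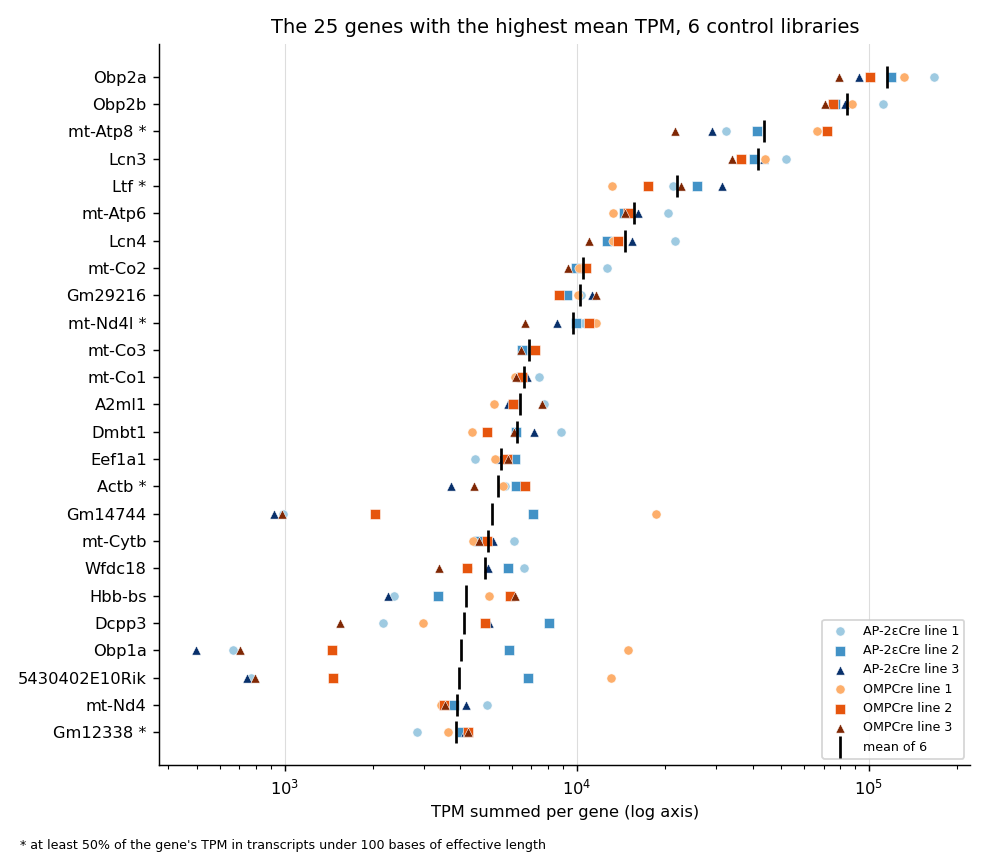
TPM summed per gene (x axis, log scale) for the 25 genes with the highest mean TPM (y axis), with a point for each of the 6 control libraries and a black tick for their mean. Obp2a and Obp2b lie at the right with their libraries close together, whereas the X-linked Gm14744, Obp1a and 5430402E10Rik each have libraries at 991 TPM or less and one at 13116 TPM or more.

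Marker genes of the neurons were a small part of this RNA. Omp, the olfactory marker protein of mature neurons, was at 145, 177, 233, 134, 126 and 260 TPM in the 6 libraries in the same order, a mean of 179 ± 55.6. Trpc2 was at 27.9, 29.2, 36.9, 26.3, 25.3 and 54.8 TPM. In TPM, AP-2εCre-line control 3 and OMPCre-line control 3 were the highest for both genes, and the lines overlapped. In CPM the spread was smaller, with Omp between 298 and 461 and Trpc2 between 82.9 and 134, and the highest pair for Trpc2 was OMPCre-line controls 3 and 1. The 6 markers of mature neurons summed to 296 ± 82.9 TPM, which was 271.5 ± 62.8 without OMPCre-line control 3. The calcium-activated chloride channel genes Ano1 (38.2 ± 4.47 TPM) and Ano2 (27.5 ± 8.85 TPM) were among them.

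Gnai2, the apical subunit, which many other cells also express, held 301 ± 85.0 TPM and Gnao1, the basal subunit, 382 ± 82.5 TPM. The order of this pair rested on short transcripts, which held 83.5% of the TPM of Gnao1. The TPM ratio of Gnao1 to Gnai2 was 1.37 ± 0.511 over all transcripts and 0.286 ± 0.0623 over transcripts of at least 100 bases of effective length. In CPM both were steady, with an SD of 0.13 on the log2(CPM + 1) scale, against a median of 0.16 for all genes. Of the other genes of the apical list, the transcription factor gene Meis2 held 201 ± 19.2 TPM and the guidance receptor gene Nrp2 37.2 ± 6.46 TPM. Of the basal list, Gng8, a G protein γ subunit, held 157 ± 26.6 TPM, the guidance receptor gene Robo2 32.6 ± 6.15 TPM, the adhesion gene Kirrel3 22.8 ± 6.16 TPM and Tfap2e, which encodes AP-2ε, 7.14 ± 2.01 TPM. All 5 genes of each list were at 1 TPM or more in all 6 libraries.

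Of 201 V1r genes, 124 had a mean of at least 1 TPM and 97 were at this level in all 6 libraries. Their sum was 634, 640, 806, 492, 584 and 956 TPM. Of 122 V2r genes, 106 had a mean of at least 1 TPM and 95 were at this level in every library, and their sum was 695, 643, 988, 570, 639 and 1184 TPM. V2r sums were above V1r sums in all 6 libraries, and their ratio stayed between 1.00 and 1.24 (mean 1.14 ± 0.0892), although both sums differed in TPM about as much as Omp did between libraries. In CPM the V1r sum ran from 1719 to 2190 and the V2r sum from 3569 to 4932. The ratio was the same without short transcripts. In CPM the V1r genes varied by a median SD of 0.23 and the V2r genes by 0.27.

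Vmn1r37 was the most abundant V1r gene (61.2 ± 12.9 TPM), followed by Vmn1r89 (34.2 ± 7.70), Vmn1r35 (24.5 ± 3.28), Vmn1r27 (22.2 ± 4.62) and Vmn1r28 (18.96 ± 2.28). The first 5 genes held 23.5% of the V1r sum and the first 10 held 34.9%, so most of it was spread over many receptors. Vmn1r37 and Vmn1r89 differed by more than the sum of their SDs, whereas each later gene in this order lay within the summed SDs of the gene before it. Among the V2r genes, the 7 of family C, which are expressed broadly in basal neurons beside another V2r, summed to 113 ± 36.4 TPM. Vmn2r2 (28.7 ± 8.32 TPM) and Vmn2r7 (24.96 ± 8.69) led them. The other 115 V2r genes were led by Vmn2r49 (31.0 ± 15.1), Vmn2r36 (26.1 ± 12.6), Vmn2r88 (23.9 ± 8.17), Vmn2r48 (23.1 ± 8.72) and Vmn2r30 (22.2 ± 7.08), whose SDs overlapped. Vmn2r48 shared 98.3% of its windows with other genes, Vmn2r36 76.0% and Vmn2r49 76.0%, so the split of reads among them is uncertain. Vmn2r88 shared 7.30%.

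**Figure D2:**
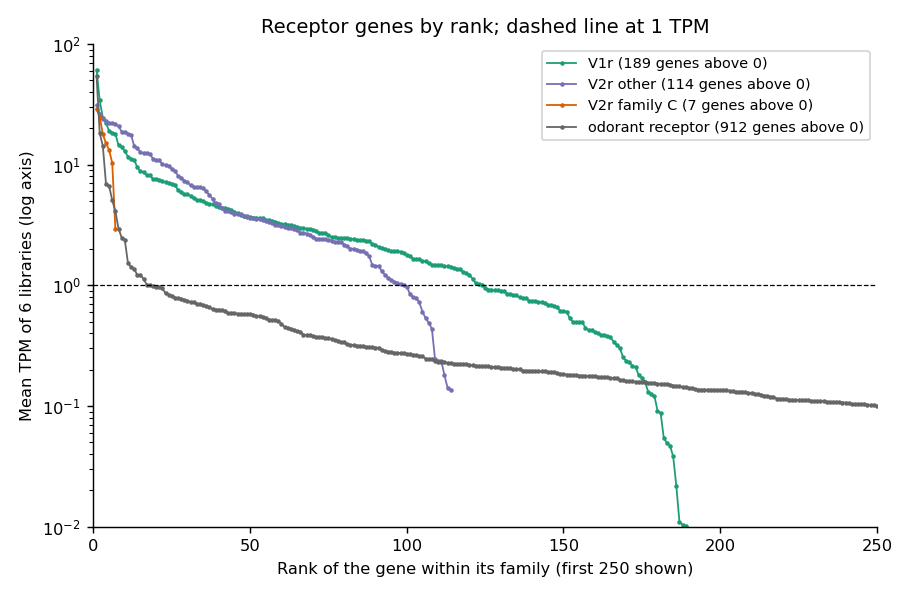
Mean TPM over the 6 libraries (y axis, log scale) of each receptor gene against its rank within its family (x axis), for V1r, V2r family C, other V2r and odorant receptor genes. The V1r curve crosses 1 TPM, the dashed line, after 124 genes and the curve of the other V2r genes after 99, whereas 18 odorant receptor genes lie at or above it.

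The basal neurons' non-classical MHC genes of the H2-Mv family were all measured, and all 9 were at 1 TPM or more in every library. H2-M10.5 (29.8 ± 7.33 TPM) and H2-M10.4 (29.6 ± 7.20 TPM) were the highest. H2-M10.3 varied most, at 53.4, 20.2, 54.6, 17.4, 17.9 and 23.9 CPM. AP-2εCre-line controls 1 and 3 were the high libraries, and the lines overlapped. Of the 5 formyl peptide receptor genes of vomeronasal neurons, Fpr-rs3 (5.97 ± 1.28 TPM) and Fpr3 (3.85 ± 1.00 TPM) led a sum of 12.3 ± 2.71 TPM. Odorant receptor genes summed to 212 ± 49.1 TPM over 1107 genes (193.5 TPM without AP-2εCre-line control 3), of which 18 had a mean of at least 1 TPM. Olfr1033 was listed first at 53.9 ± 18.2 TPM, but 99.8% of this lay in short transcripts and its level was 4.77 ± 1.20 CPM. Olfr648 (18.3 ± 0.833 TPM), Olfr124 (14.3 ± 5.48), Olfr90 and Olfr1385 followed. The 16 Taar genes summed to 0.338 ± 0.136 TPM, and 9 of them had no count. Markers of olfactory neurons of the main epithelium were present, with Cnga2 at 4.78 ± 2.03 and Gnal at 8.59 ± 3.17 TPM. Both of these genes were lowest in CPM in OMPCre-line control 3, whereas the list of 4 as a whole was lowest in OMPCre-line control 2.

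Genes of growing neurons summed to 373 ± 42.5 TPM over 5 genes, led by Dpysl3 (153 ± 33.8) and with Gap43 at 37.1 ± 4.66 TPM. The progenitor genes Neurog1 (0.464 ± 0.152 TPM) and Neurod1 (2.56 ± 0.876) were low but counted in every library. Proliferation genes summed to 75.6 ± 26.7 TPM. The ciliated list, with Foxj1, the regulator of motile cilia, summed to 500 ± 140 TPM. Foxj1 was at 24.9, 31.1, 47.6, 33.8, 38.0 and 22.1 TPM, and it was lowest in OMPCre-line control 3, which had the highest V1r, V2r and mature neuron sums. The detoxifying cytochrome gene Cyp2a5 led the sustentacular list at 776 ± 284 TPM, and was also lowest in OMPCre-line control 3, at 437 TPM. Ionocyte genes summed to 25.4 ± 6.50 TPM. The 5 tuft cell genes summed to 4.37 ± 2.21 TPM, and none was at 1 TPM in all 6 libraries.

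Connective tissue genes held more of the counts than neuronal genes. Collagen and other fibroblast genes held 2.51% ± 0.723 of the counts, against 0.0783% ± 0.0139 for mature neuron genes, though lists differ in length and content. Col1a1 held 2984 ± 1214 TPM. The osteoblast genes Bglap, which encodes osteocalcin, Ibsp and Sp7 summed to 1593 ± 516 TPM. Cartilage genes were low (11.8 ± 7.75 TPM) and uneven. Col2a1, the collagen of hyaline cartilage, was at 64.6, 85.9 and 65.5 CPM in AP-2εCre-line controls 1 and 2 and OMPCre-line control 1, and at 6.82 to 8.56 CPM in the other 3. Mural cell genes summed to 789 ± 256 TPM, with Acta2 at 463 ± 123. Globin and other erythroid genes summed to 9827 ± 3478 TPM and ranged 2.78-fold. Neutrophil genes summed to 370 ± 78.1 TPM, macrophage genes to 75.1 ± 13.3, glial genes to 108 ± 32.7, lymphocyte genes to 9.48 ± 3.75 and mast cell genes to 8.88 ± 4.83 TPM.

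Among endothelial genes 1 stood out. Pecam1 was at 369, 261, 103, 803, 230 and 90.2 CPM, and at 77.2 to 1369 CPM in the other 12 libraries. Cdh5 (28.3 to 42.8 CPM), Kdr (20.8 to 31.1 CPM) and Tek (14.6 to 16.8 CPM) were far steadier in the same 6 libraries. The SD of Pecam1 on the log2(CPM + 1) scale was 1.17, against 0.07 to 0.28 for the other 5 genes of the list.

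**Figure D3:**
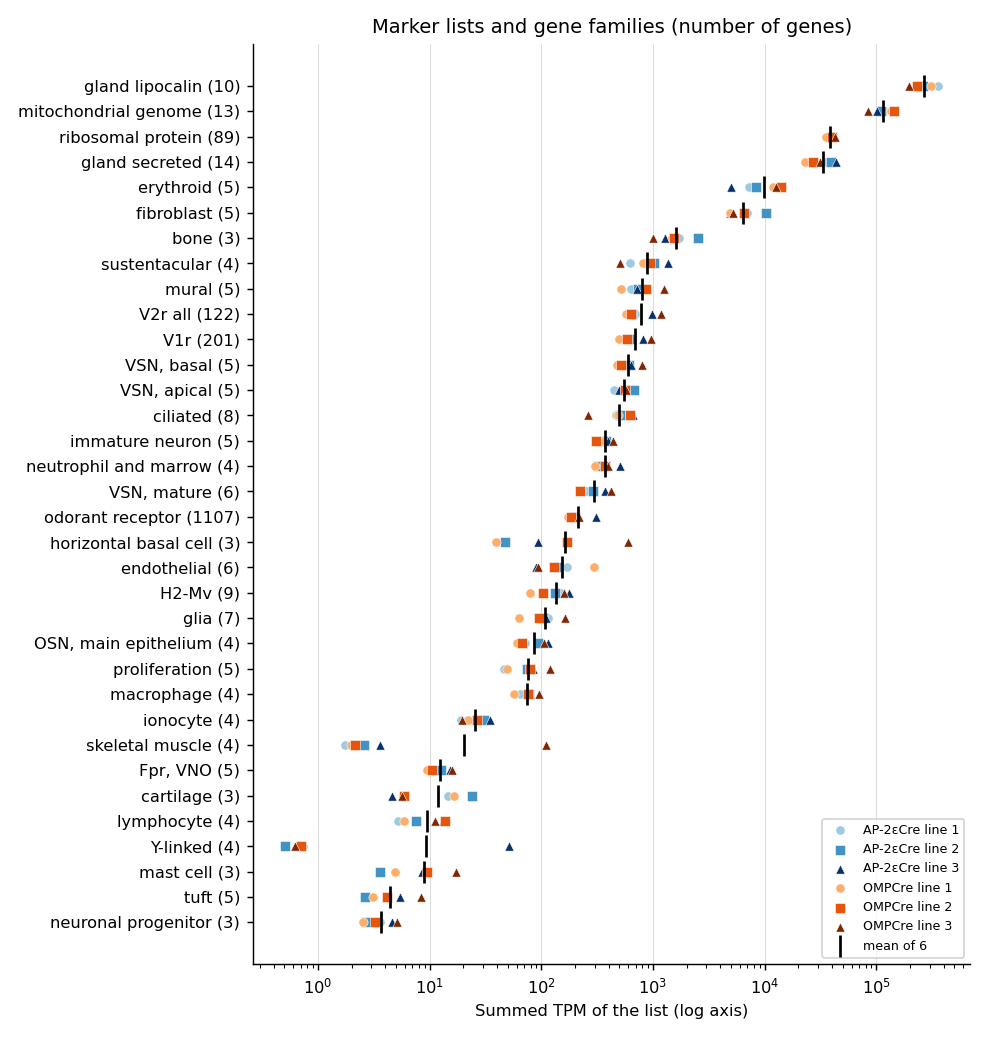
Summed TPM (x axis, log scale) of marker lists and gene families (y axis, with the number of genes matched), with a point for each control library and a black tick for the mean. Lipocalins are at the top near 266133 TPM, most lists keep their 6 libraries within about 3-fold, and horizontal basal cell, skeletal muscle and Y-linked genes each have 1 library far to the right.

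For the spread between libraries, 12838 genes with a mean of at least 5 CPM were ranked by the SD of log2(CPM + 1) over the 6 libraries. The median SD was 0.16, the 90th percentile 0.37 and the 99th 1.84, and without OMPCre-line control 3 they were 0.15, 0.31 and 1.07. It was 1 or more in 234 genes, and in 146 genes when OMPCre-line control 3 was left out. The order was partly the same elsewhere. Across genes, Spearman's rho between this SD and the SD within groups of the other 12 libraries was 0.668, and 0.600 without OMPCre-line control 3. Both SDs can depend on the level of a gene, which was not held constant. Of the 25 most variable genes, 20 were among the 5% of genes that varied most within the groups of those 12 libraries, and 23 of the 25 ranked without that library were.

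The 25 most variable genes were of 2 kinds. The first kind was keratins and other genes of the cornified epidermis and hair, and all but Krt6a were at 33.5 CPM or less outside OMPCre-line control 3. Krt10 was at 1742 CPM there and at 1.53 to 21.2 CPM in the other 5, and Flg (filaggrin) was at 404 against 0 to 0.301 CPM. Hrnr, Rptn, Lor, Krt2, Calm4, Krt79, Dsg1a, Dsc1 and Cdsn, which all belong to the differentiating epidermis, had the same pattern. Krt71 and Krt25, keratins of the hair follicle, were at 195 and 145 CPM there and at most at 0.260 CPM in any other control. In the 12 other libraries the highest level of these genes ran from 0.131 CPM for Krt71 to 229 CPM for Krt6a, with 28.3 CPM for Krt1, 63.7 CPM for Calm4, 98.0 CPM for Krt10 and 115 CPM for Rptn. In all, 66 genes were highest in OMPCre-line control 3 by at least 3 log2 units over the next library, against 0 to 3 in any of the others. A list of 15 genes of the cornified epidermis, chosen after values were seen, summed to 5721 TPM there and to 9.32 to 297 TPM elsewhere. Skeletal muscle genes summed to 109 TPM there and to 1.74 to 3.60 TPM elsewhere, with Myh1, a fast myosin heavy chain, at 60.4 against 0 to 0.236 CPM. The horizontal basal cell list, which marks basal epithelial cells, cannot tell those of the epidermis from others. Its genes were highest there as well (592 TPM against 39.6 to 170), with Krt5 and Krt14 among them. Without that library their sum was 78.0 ± 56.0 TPM.

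The second kind was processed pseudogenes of ribosomal proteins and other housekeeping genes, which were present or absent library by library. With Rpl10-ps3, they made up the rest of the 25. Pseudogenes were 9 of the 25, against 2.37% of all genes ranked. Rps3a2 was at 0 counts in all 3 AP-2εCre-line controls and at 170, 159 and 81.5 CPM in the OMPCre-line controls. Rpl10-ps1 was at 0 counts in AP-2εCre-line controls 1 and 2 and at 31.0 to 156 CPM in the others. Gm8730 was near 0 in AP-2εCre-line control 3 and OMPCre-line control 2, at 0.231 and 0.711 CPM, and between 108 and 149 CPM in the other 4. Rpl10a-ps1, Rps12l1 and Rpl10-ps3, which is annotated as coding, were at 0 counts in AP-2εCre-line control 1 and at 82.9 to 292 CPM in the other 5 libraries. All 75-base windows of Rpl10-ps1, Rpl10a-ps1 and Rps12l1 also occur in Rpl10, Rpl10a or Rps12 or their other copies, and 86.4% of those of Rps3a2 occur in other genes. Reads of these genes can therefore be assigned to more than 1 gene, and their levels are uncertain.

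**Figure D4:**
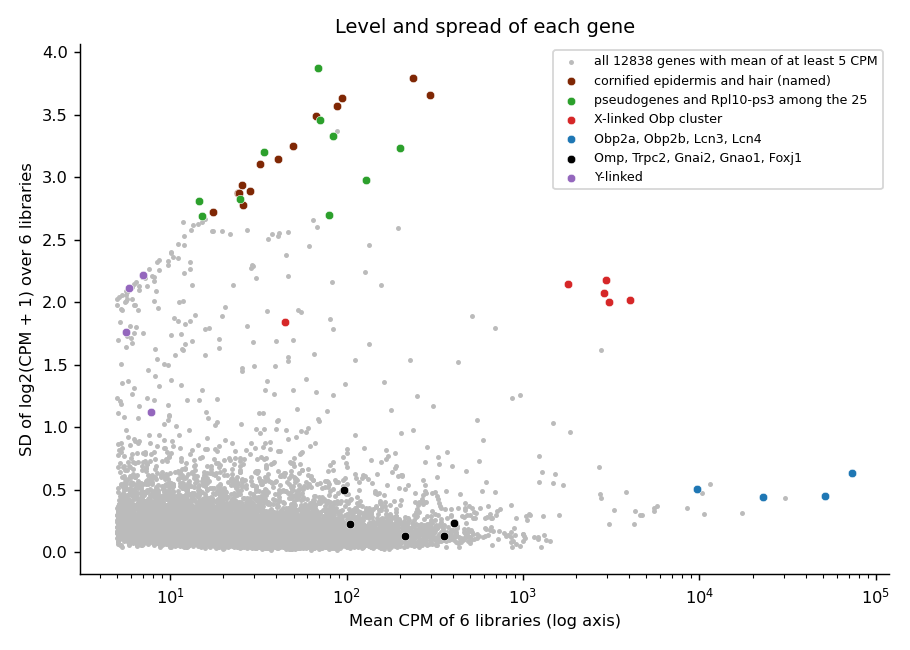
SD of log2(CPM + 1) over the 6 control libraries (y axis) against mean CPM (x axis, log scale) for the 12838 genes with a mean of at least 5 CPM, with named groups in colour. The X-linked Obp genes combine a mean of up to 4051 CPM with an SD near 2, whereas Obp2a, Obp2b, Lcn3 and Lcn4 lie at 0.44 to 0.64 and the neuronal markers lower. Both lipocalin groups were chosen after values were seen. Lcn11, another lipocalin gene of chromosome 2, is not in colour and has an SD of 1.23.

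Among genes with a mean of at least 1000 CPM, a limit set after values were seen, the 5 with the largest SD belonged to a cluster of lipocalin genes between 77864758 and 78245921 on the X chromosome (GRCm38). Obp1a, an odorant-binding protein gene encoded there, was at 471, 3815 and 263 CPM in AP-2εCre-line controls 1 to 3 and at 11874, 923 and 335 CPM in OMPCre-line controls 1 to 3. OMPCre-line control 1 was highest, AP-2εCre-line control 2 next, and the lines overlapped. The highest level was 45.2-fold the lowest, against 3.14-fold for Obp2a. The neighbours Obp1b (284 to 11014 CPM), Gm14744 (503 to 16122 CPM), 5430402E10Rik (406 to 11269 CPM) and Gm14743 (144 to 7293 CPM) had the same highest pair of libraries. Together the 6 coding genes of the cluster held 3489, 29079, 2945, 68905, 7275 and 3916 TPM. Obp1a shared no 75-base window with another gene, whereas Obp1b shared 65.7% of its windows with Gm14743 and 5430402E10Rik 46.0% with Gm14744.

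Genes most like Obp1a were taken as those with Pearson's r over 0.9 with it across the 6 libraries, on the log2(CPM + 1) scale, and with an SD over 1. There were 15, of which 6 were on the X chromosome (Obp1b, Gm14744, 5430402E10Rik, Gm14743, Gm5938 and the pseudogene Gm14750). The others lay on 6 other chromosomes. Mup4 (34.2 to 549 CPM) and Mup5 (85.0 to 2384 CPM) encode major urinary proteins, which are lipocalins, as does the chromosome 2 gene Lcn11 (211 to 2412 CPM). Scgb1b27 (7.62 to 1026 CPM) and Scgb2b27 (4.82 to 686 CPM), neighbours on chromosome 7, encode secretoglobins, the family of salivary androgen-binding proteins. Crisp1 (10.298 to 476 CPM) encodes a cysteine-rich secretory protein, Car6 (14.2 to 663 CPM) a secreted carbonic anhydrase, and Dnase1 (3.25 to 77.8 CPM) a secreted nuclease. Apol10a was between 2.98 and 28.5 CPM. With 15 genes chosen for their likeness in these libraries, the r values there are a description only.

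The 12 heterozygote and knockout libraries, which had not been used to choose the genes, were then examined. Deviations of log2(CPM + 1) from the mean of each of the 4 groups were correlated with those of Obp1a. Pearson's r was 0.798 to 0.990 and Spearman's rho 0.643 to 0.972 over the 15 genes. In an exact two-sided permutation test within groups (1296 arrangements, smallest possible p 0.000772), the unadjusted p for r was at most 0.0201 and under 0.05 for all 15 genes, and that for rho was under 0.05 for 13 of them. Of all 12835 genes that could be tested, 19.2% had such a p for r and 18.4% for rho. Of the 178 genes with r over 0.9 in the controls at any SD, 42 did for r. After Benjamini-Hochberg adjustment over all genes none passed 0.05, and the adjusted p for r of the 15 genes was 0.151 to 0.196. An r of at least 0.798 was found in 335 of all the genes (2.61%). Without the 2 libraries farthest from the median of Obp1a, r was 0.570 to 0.979. The values of Obp1a there, scaled over all 18 libraries, were 9223, 1448 and 1263 CPM in AP-2εCre heterozygotes, 5687, 5594 and 1157 CPM in OMPCre heterozygotes, 33.7, 73.2 and 17.4 CPM in AP-2εCre knockouts and 3443, 216 and 29.4 CPM in OMPCre knockouts. Wide spread within a group was thus present in both lines, and differences between genotypes were not tested here. Among the 6 controls, AP-2εCre-line control 1 had the highest level of Obp2a, at 115158 CPM, and the level of Obp1a that was 4th in order, at 471 CPM. In the other 5 controls Obp1a had the same order as Obp2a except for the lowest pair.

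**Figure D5:**
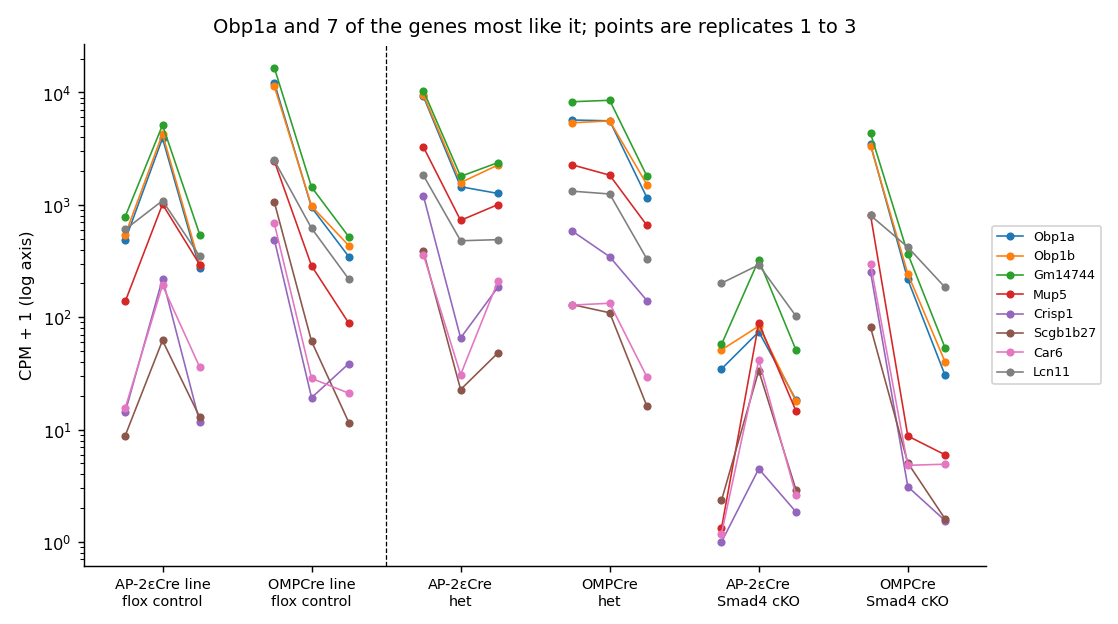
CPM + 1 (y axis, log scale) of Obp1a and 7 of the 15 genes most like it in all 18 assigned libraries, grouped by line and genotype (x axis), with a point per library and lines joining the points of a gene for legibility only. The 6 control libraries used to choose the genes are left of the dashed line, and to the right of it Obp1a runs from 17.4 to 9223 CPM.

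When coding genes alone were ranked and OMPCre-line control 3 was left out, a choice made after seeing the data, 22 of the 25 most variable genes were also among the 5% most variable within the other groups. They included 7 of the lipocalin and secretoglobin genes above besides Crisp1 and Car6. A set of keratins of stratified mucosa was high in OMPCre-line control 2. Krt13 was at 147 CPM there against 0.736 to 11.3 CPM in the others, Krt4 at 172 against 0.486 to 30.7 CPM, and Sprr3, a cornified envelope gene, at 50.9 against 0.0147 to 0.270 CPM. Krt6a was high in OMPCre-line controls 2 and 3, at 225 and 289 CPM. In the 12 other libraries Krt13 reached 197 CPM and Krt4 167.5 CPM. Itln1 (intelectin) was at 43.9, 122 and 91.4 CPM in the AP-2εCre-line controls and at 3.34, 16.5 and 0.396 CPM in the OMPCre-line controls, so the lines did not overlap, but edgeR did not call the gene (adjusted p = 0.9997). Chil4, a chitinase-like protein of airway epithelium, ranged from 0.594 to 119 CPM. Among the receptors, Vmn2r38 was most variable, at 99.4, 71.8, 9.79, 8.54, 10.43 and 97.3 CPM. Shared windows were not counted for Vmn2r38 or Vmn2r122, so how far their reads can be separated from those of other V2r genes is not known. Vmn2r122 was at 15.5 to 22.9 CPM in the AP-2εCre line and at 63.8 to 96.8 CPM in the OMPCre line (edgeR adjusted p = 0.0505).

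The steadiest of the genes with a mean of at least 100 CPM were Pdha1, a subunit of pyruvate dehydrogenase (SD 0.03, 168 to 177.5 CPM), Eif4ebp2, Csnk1d, Enah, Sec24c, Ankrd17, Socs2, Sf3b2, Hsp90ab1 and Plxnb2. Their SDs were 0.03 to 0.04, and within the groups of the other 12 libraries they were 0.05 to 0.10. Of genes often used as references, Tuba1a (SD 0.15) was steadier than Gapdh (0.41) and Actb (0.30). Circadian genes had a median SD of 0.48. Nr1d1, a clock repressor, was at 31.2 CPM in AP-2εCre-line control 3 and at 79.3 to 140 CPM in the other 5, while Per3 was highest in that library, at 56.8 against 20.3 to 37.1 CPM. Of the immediate early genes Fos (5.83 to 20.5 CPM) and Egr1 (19.4 to 63.2 CPM) had SDs of 0.61 each, and the list's median was 0.23. Interferon-induced genes had a median SD of 0.47, with Ifit3 at 57.2 CPM in OMPCre-line control 2 against 11.1 to 22.8 CPM in the other 5. The heat shock list had a median of 0.36.

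By the study's methods, the controls of the OMPCre and the AP-2εCre line share their genotype. Between them, edgeR's quasi-likelihood test called 4 of 17683 genes at an adjusted p under 0.05 (0.0226% of those tested), 2 in each direction. At an unadjusted p under 0.05 there were 803. Gm5514, a pseudogene that shares 22.2% of its windows with Ldhb, was at 32.1, 27.6 and 31.0 CPM in the AP-2εCre line and at 4, 3 and 1 counts in the OMPCre line (edgeR adjusted p = 3.81e-05). Gm2223 was at 4.69, 4.06 and 3.92 CPM against 0 counts in every OMPCre-line library (edgeR adjusted p = 0.0248). Rps3a2 (edgeR adjusted p = 0.0197) and Rps3a3 (edgeR adjusted p = 0.000426) were higher in the OMPCre line. Rps3a3 was at 0.0839 to 0.328 CPM in the AP-2εCre line and at 59.0 to 77.7 CPM in the OMPCre line. DESeq2 called 102 genes, and 12 were called by edgeR without OMPCre-line control 3. Omp, Trpc2, Gnai2, Gnao1, Foxj1 and Obp2a were not among the called genes in the main test, and each overlapped between the lines.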

How the data were processed

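Whole vomeronasal organs were sequenced as stranded, poly(A)-selected libraries with single-end reads of 75 bases, and the submitters' processing notes name Salmon (0.14.0) and DESeq2 (1.22.2). The deposited tables give, per transcript, estimated counts (not whole numbers) and the transcripts per 1000000 (TPM) that the authors obtained with them. Salmon shares reads that match several transcripts among them by likelihood, so values of near copies depend on that split, and the TPM of a transcript rises steeply as its effective length nears 0. The study's methods name a coding-sequence (CDS) assembly of GRCm38 as the reference, but only 35.5% of the transcript lengths in the deposited tables are multiples of 3 and pseudogenes are listed. Of 116248 transcripts, 116072 were paired with a gene by their versioned identifiers in the GENCODE annotation of GRCm38, and the other 176 held at most 0.0324% of the counts of a library. Counts and TPM were summed over the 35596 genes, of which some share a symbol (44 symbols).

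Libraries were grouped by the genotype in their titles. They are labelled biological replicates. One library of the series, whose title and genotype label disagree, was left unassigned and not used. Expected counts were rounded to whole numbers, scaled by TMM (factors 0.879 to 1.14) and expressed as CPM with edgeR (4.0.16). The controls of the lines were compared with edgeR's quasi-likelihood test after filterByExpr, with Benjamini-Hochberg adjustment at 0.05 over all genes tested. On simulated counts for this comparison, with 200 genes changed, 61% were recovered at a log2 fold change of 1 with 6 false calls (17489 genes), and 97% at 2 with 9 false calls (17505 genes). The simulated counts were drawn around 1 mean per gene with the fitted dispersion and held no outlying library. Recovery in the real libraries, where OMPCre-line control 3 stood apart, was therefore not measured and can be lower. DESeq2 (1.42.0) was an alternative. R (4.3.3), Python (3.11.15), pandas (2.3.3), numpy (2.4.6), scipy (1.17.1) and matplotlib (3.10.9) were used.

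Named genes were the 25 highest by TPM, the 10 highest by counts, the 5 highest of each receptor family, the 25 most variable at a mean of at least 5 CPM, the 10 steadiest at a mean of at least 100 CPM, the members of marker lists and the genes called between the lines. Genes most like Obp1a, the epidermal list, Krt13, Krt4, Sprr3, Itln1, Chil4, Vmn2r38, Vmn2r122, Myh1 and H2-M10.3 as the most variable of its list were singled out after their values were seen. So were the set of Obp2a, Obp2b, Lcn3 and Lcn4 and the set of coding genes of the X-linked Obp cluster. The members and the marker lists were chosen with earlier results of these data known. Lcn13, Lcn14, Lcn16 and Lcn17 matched no symbol. Shared sequence between genes was counted as identical 75-base windows of annotated transcripts, and upstream sequences were read from RefSeq promoters on GRCm38.p6. Errors are SDs over libraries, and p-values measure only the spread between these libraries.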

Additional observations from a re-analysis of the deposited data

Results flagged for a closer look

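In each group of 6 values, the gap between the highest or lowest library and its nearest neighbour was divided by the whole range, and a ratio above Dixon's 95% critical value for 6 samples was taken as a library far from the others. Chance gives about 1 in 20 only for results not picked for their spread. Of 97 results tested, 24 passed, and 18 of these were among the 25 genes picked as most variable in these same libraries, to which that rate does not apply. The other 72 results gave 6, but the marker lists among them were chosen with earlier results of these data known. The rate also assumes normal values, and summed TPM was tested without a log. The 6 are therefore not read as more than that rate. Of the 24, 17 were in OMPCre-line control 3, 3 in AP-2εCre-line control 1, 2 in AP-2εCre-line control 3 and 2 in OMPCre-line control 1. Lists were tested as summed TPM in this tally, and in CPM other lists and libraries passed, as given below. The results are not independent, since many of the genes moved together.

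OMPCre-line control 3 was highest for the genes of the cornified epidermis and hair follicle. The ratio was 0.998 for Krt1, 0.989 for Krt10, 0.999 for Krt2, 0.999 for Krt79, 1 for Krt71 and 0.998 for Krt25. For Rptn it was 0.937, for Hrnr 0.992, for Flg 0.999, for Lor 0.999, for Cdsn 0.983 and for Calm4 0.986. The desmosomal cadherin genes Dsg1a and Dsc1 had 0.99 and 0.998, and the pseudogene Ftl2-ps had 0.967. The same library was highest for the horizontal basal cell list (ratio 0.764, 592 TPM) and the skeletal muscle list (ratio 0.983, 109 TPM).

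AP-2εCre-line control 3 was highest for the Y-linked list (ratio 0.996, 51.9 TPM) and for the sum of odorant receptor genes (ratio 0.656, 308 TPM), though in CPM the latter ratio was 0.427 and did not pass. In CPM 8 of the 42 lists passed, the 3 lists named before the odorant receptors among them, and the ciliated list was lowest in OMPCre-line control 3 (ratio 0.684). In OMPCre-line control 2 the mature neuron list (ratio 0.639) and the immature neuron list (ratio 0.636) were lowest and the interferon-induced list highest (ratio 0.660). The list of other gland products was highest in AP-2εCre-line control 1 (ratio 0.634). OMPCre-line control 1 was highest for Gm14744 (ratio 0.655, 18696 TPM) and Obp1a (ratio 0.629, 14935 TPM). AP-2εCre-line control 1 was lowest, at 0 counts, for Rpl10-ps3 (ratio 0.741), Rps12l1 (ratio 0.663) and Rpl10a-ps1 (ratio 0.711), whose reads can be assigned to more than 1 gene.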

How the results depend on the processing

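The count of genes differing between the lines (4) was also 4 with DESeq2's size factors in edgeR and was 3 with counts from length-scaled TPM. It was 10 when every gene with any count was kept, 102 with DESeq2 (61 higher and 41 lower in the OMPCre line), 8 with the naming pattern of the deposited tables in the model and 1 with all 18 libraries in 1 fit. With a replicate block it was 7. Same-numbered libraries of the lines deviated together with r of 0.00455, 0.016 and 0.179, so the number was not taken to pair them, and not every library correlated best with its own number. Leaving out 1 library gave 2 to 12 genes, with 12 without OMPCre-line control 3 and 2 without AP-2εCre-line control 2 or 3. The cause of these differences was not tested. Of the 25 most variable genes, 9 remained with summed TPM, and 10 to 24 with 1 library left out, the 10 being without OMPCre-line control 3. Among alternatives added after seeing the data, 16 of the 25 remained with protein-coding genes only and 3 with coding genes only and without that library. Other scalings, pseudocounts and minimum levels kept 17 to 25. Of the 25 most abundant genes, 18 remained by CPM, 22 by median, 21 without short transcripts (added after seeing the data) and 22 to 24 with 1 library left out. Genes at 1 TPM or more in all 6 libraries numbered 13425, and 14559 at 0.5 TPM, 11814 at 2 TPM, 15294 by mean, 14672 by CPM and 13455 to 13668 with 1 library left out. Without OMPCre-line control 3 the mean sum fell from 20.3 to 2.42 TPM for skeletal muscle and from 164 to 78.0 TPM for horizontal basal cell genes, and without AP-2εCre-line control 3 from 9.18 to 0.642 TPM for Y-linked genes. As a percent of counts, 32 of 42 summed lists and families moved by more than 1 SD (30 of the 42 were higher), and without short transcripts 10 did (33 of the 42 were higher).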

Other observations

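The deposited tables are named in 2 ways, by a letter and number or by the line and number, and AP-2εCre-line control 3 and OMPCre-line control 3 are the controls with the second. What these names mean is not given in the sources used here. With line as a covariate, an edgeR test added after seeing the data called 19 of 18294 genes between the patterns (8 higher in the second), and 2161 had an unadjusted p under 0.05. Both libraries of the second pattern stood apart in other ways, and the naming pattern and those features cannot be told apart.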
